A study of Mus musculus with 9 samples.

Results

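Acute phase proteins are plasma proteins made mainly by hepatocytes whose synthesis changes quickly when the liver receives inflammatory cytokines. Interleukin-6 acts through the receptor pair Il6ra and Il6st and the transcription factor Stat3, and interleukin-1 and TNF act through NF-kB, with the C/EBP factors binding at many of the same genes. Serum amyloid A (Saa1 and Saa2) is the class that swings most, haptoglobin, hemopexin and the orosomucoids move less, and Lcn2 is made by hepatocytes, neutrophils and injured epithelia alike. In the mouse, serum amyloid P (Apcs) takes the acute phase role that C-reactive protein has in humans.

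The 10 genes described here, Lcn2, Saa1, Saa2, Saa3, Saa4, Orm1, Orm2, Hp, Hpx and Apcs, were chosen by name, and all 10 were found among the 30519 transcripts of the table, 1 transcript for each. PolyA RNA of whole liver powder came from 4 miR-122 knockout (KO) mice, 1 female (replicate 1) and 3 males, and from 5 floxed littermates that served as controls (WT), 3 females (replicates 1 to 3) and 2 males (replicates 4 and 5), all aged 6 weeks. miR-122 is the dominant microRNA of hepatocytes. The labels name no Cre line, so which cells lost the microRNA cannot be stated, and the genotype rests on the labels. Each library came from its own mouse. Values are normalised abundances on 1 scale for all libraries and scale with length, so levels of different genes can be set side by side.

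WT replicate 5, a male, stood apart in these genes. Its value was the highest of the 5 WT livers for 9 of the 10 genes (90%), all but Orm2, whereas it was the highest WT library for 26.3% of the 10950 transcripts tested. Results for the 10 genes are therefore given with and without that animal. The animal was picked from the values of these same genes. Fits without it are thus descriptions, and their adjusted p-values are not independent support for a difference. Hepatocyte markers were abundant in all 9 livers, with Alb between 29490 and 90020, and Alb was lowest in WT replicate 5. By the steps between low values, KO libraries held 15.4 to 22.1 M reads and WT libraries 12.2 to 19.7 M, fewest in WT replicate 5. The fewest reads behind any of these genes were 42, for Lcn2 in WT replicate 4. In whole liver, a change in the number of cells of a type and a change in RNA per cell cannot be told apart.

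The start regions of 6 of the genes are shown because cytokine-driven factors are known to bind near the starts of acute phase genes: Lcn2, Saa3 and Apcs, which were called over all livers, the near-identical pair Saa1 and Saa2, and Orm2. RefSeq (GRCm38.p6) gave a window from 250 bases before to 50 bases after the transcription start for 8 of the 10 genes; Orm1 and Hp were not in the table. Capitals mark matches to a C/EBP-type word, TTGCNNAA, on either strand.
Lcn2 (chr2:32387690-32387989, minus strand): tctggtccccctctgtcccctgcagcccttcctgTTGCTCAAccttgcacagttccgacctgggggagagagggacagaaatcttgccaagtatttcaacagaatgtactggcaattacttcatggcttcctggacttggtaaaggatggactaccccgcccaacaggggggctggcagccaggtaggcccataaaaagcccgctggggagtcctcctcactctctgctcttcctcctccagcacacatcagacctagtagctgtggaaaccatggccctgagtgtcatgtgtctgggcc
Saa1 (chr7:46742931-46743230, minus strand): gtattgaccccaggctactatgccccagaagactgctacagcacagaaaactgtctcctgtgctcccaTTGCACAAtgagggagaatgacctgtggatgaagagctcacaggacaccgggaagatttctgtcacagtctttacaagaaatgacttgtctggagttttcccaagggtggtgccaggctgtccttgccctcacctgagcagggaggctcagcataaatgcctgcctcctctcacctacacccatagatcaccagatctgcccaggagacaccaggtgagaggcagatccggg
Saa2 (chr7:46751583-46751882, plus strand): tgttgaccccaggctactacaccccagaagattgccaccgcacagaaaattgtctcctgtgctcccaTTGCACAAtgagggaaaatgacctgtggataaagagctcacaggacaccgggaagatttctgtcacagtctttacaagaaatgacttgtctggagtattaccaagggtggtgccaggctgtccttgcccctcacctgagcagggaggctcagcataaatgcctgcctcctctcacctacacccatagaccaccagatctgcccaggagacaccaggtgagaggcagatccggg
Saa3 (chr7:46715627-46715926, minus strand): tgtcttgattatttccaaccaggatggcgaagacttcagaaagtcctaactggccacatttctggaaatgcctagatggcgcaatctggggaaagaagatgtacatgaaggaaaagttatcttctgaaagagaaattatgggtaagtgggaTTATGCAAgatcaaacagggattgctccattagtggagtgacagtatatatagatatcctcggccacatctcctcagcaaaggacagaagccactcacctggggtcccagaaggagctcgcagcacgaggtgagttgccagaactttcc
Orm2 (chr4:63362199-63362498, plus strand): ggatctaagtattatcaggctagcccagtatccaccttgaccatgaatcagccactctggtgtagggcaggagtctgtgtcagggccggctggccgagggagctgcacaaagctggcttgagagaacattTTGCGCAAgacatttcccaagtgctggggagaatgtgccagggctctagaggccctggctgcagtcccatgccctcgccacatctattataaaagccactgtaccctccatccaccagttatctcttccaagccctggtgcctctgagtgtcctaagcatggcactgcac
Apcs (chr1:172895005-172895304, minus strand): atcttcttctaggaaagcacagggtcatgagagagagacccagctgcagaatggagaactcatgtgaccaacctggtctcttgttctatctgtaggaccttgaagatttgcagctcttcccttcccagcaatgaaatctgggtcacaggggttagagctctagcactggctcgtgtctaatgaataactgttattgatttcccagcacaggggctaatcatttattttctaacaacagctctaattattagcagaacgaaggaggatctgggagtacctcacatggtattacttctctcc

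The windows of Saa1 and Saa2 were 95.3% identical over their alignment, against 54.2% for Saa1 and Saa3 and 50.7% for Saa1 and Saa4. The C/EBP-type word stood in 7 of the 8 windows, those of Lcn2, Saa1, Saa2, Saa3, Saa4, Orm2 and Hpx, and Apcs was the window without it. Among all 32851 RefSeq windows of the same length 10.8% held the word. The form of the word was settled after these windows had been read, so the count is a description and not a test. A STAT-type word, TTCNNNGAA, was found in the Apcs window alone, 244 bases before the start, and in 8.3% of all windows. The NF-kB consensus was found in none of the 8 windows and in 8.46% of all windows. None of these words overlapped another in the 8 windows, and a letter match says nothing of binding.

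**Figure D1:**
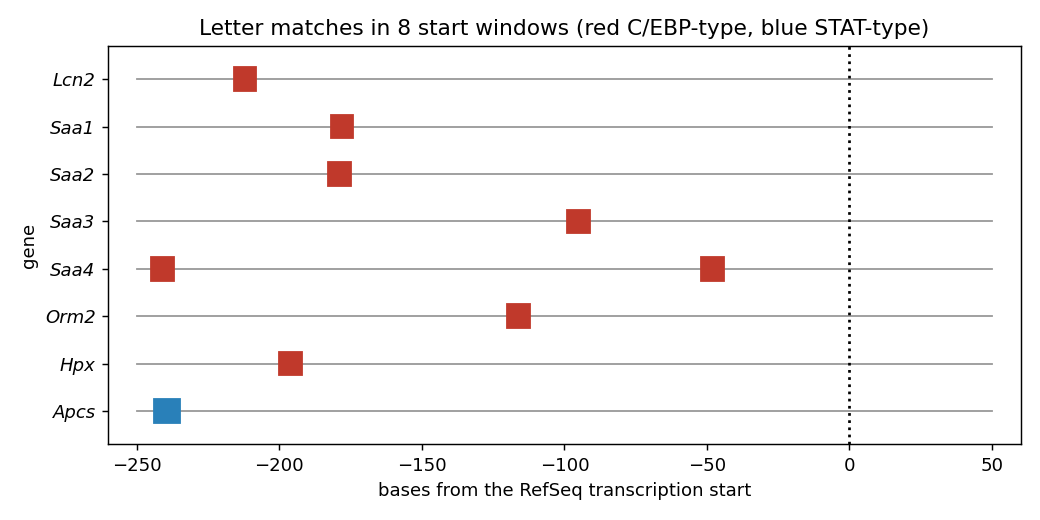
Positions of letter matches in the 8 RefSeq start windows, in bases from the transcription start (dotted line), 1 row per gene. Red boxes mark the C/EBP-type word, found in all windows but that of Apcs and found at 2 places in Saa4, and the blue box marks the STAT-type word in Apcs.

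Lcn2 encodes lipocalin 2, which binds bacterial siderophores and so withholds iron. It stood at 448, 556, 559 and 753 in KO livers, against 22.3, 34.5, 12.06, 5.10 and 61.8 in WT livers. Every KO liver lay above every WT liver, by at least 7-fold between the nearest animals. The means were 579 ± 127 in KO and 27.2 ± 22.3 in WT (SD, n = 4 and n = 5). The log2 fold change was 4.76 ± 0.58 (SE; limma adjusted p = 0.000249), and 5.15 ± 0.48 without WT replicate 5 (adjusted p = 0.000102). Lcn2 lies on chromosome 2 (32384633 to 32387797, minus strand, GRCm38, 6 exons). WT livers themselves spread widely, with replicate 4 lowest and replicate 5 highest.

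The serum amyloid A genes lie together on chromosome 7, from Saa3 (46711998 to 46715700, minus strand) past Saa4 (46727998 to 46732603, minus) and Saa1 (46740497 to 46742980, minus) to Saa2 (46751833 to 46754313, plus), each with 4 exons. Saa1 and Saa2 encode the circulating forms, which ride on high-density lipoprotein during inflammation. Saa1 stood at 433, 776, 1282 and 1415 in KO livers, against 77.0, 128, 73.8, 134.5 and 3812 in WT livers. The first 4 WT livers lay below every KO liver and WT replicate 5 lay above every KO liver. Saa1 was therefore not called over all livers, at a log2 fold change of 2.09 ± 1.07 (SE; limma adjusted p = 0.159). Without WT replicate 5 the means were 976.5 ± 455 in KO and 103 ± 32.3 in WT (SD, n = 4 each), 9.46-fold apart, and the log2 fold change was 3.14 ± 0.38 (adjusted p = 0.000436).

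Saa2 also had its 4 lowest values in the first 4 WT livers and its highest in WT replicate 5. It stood at 132, 153, 337 and 290.2 in KO livers, against 27.9, 53.15, 26.4, 28.0 and 1653 in WT livers. Its log2 fold change was 1.54 ± 1.13 over all livers (limma adjusted p = 0.321) and 2.67 ± 0.34 without WT replicate 5 (adjusted p = 0.000566), where the means were 228 ± 100.7 in KO and 33.9 ± 12.9 in WT (SD, n = 4 each). The ratio of Saa1 to Saa2 ran between 3.28 and 5.06 in KO libraries and between 2.31 and 4.80 in WT libraries. The transcripts of Saa1 and Saa2 share 155 words of 31 bases, 26.8% of those in Saa1 and 26.9% of those in Saa2, so reads can be divided between them with error and the level of either gene alone is less certain than the pair.

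Saa3 is the form that macrophages and other cells outside hepatocytes also make in the mouse. It was the least abundant of the 10 genes by its means, at 19.2, 27.4, 36.8 and 30.6 in KO livers and at 14.8, 16.5, 13.15, 12 and 16.88 in WT livers. Every KO liver lay above every WT liver, and WT replicate 5 lay near its group. Saa3 rose 1.94-fold by its means (28.5 ± 7.34 in KO and 14.7 ± 2.10 in WT, SD, n = 4 and n = 5), with a log2 fold change of 0.89 ± 0.17 (SE; limma adjusted p = 0.00362), and of 0.94 ± 0.19 without WT replicate 5 (adjusted p = 0.00475).

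Saa4 encodes the constitutive form, which is carried on lipoproteins in health. It stood at 139, 184, 121 and 153 in KO livers and at 169, 152, 213, 218 and 596 in WT livers, so the groups overlapped and WT replicate 5 was again the highest. Its log2 fold change was -0.66 ± 0.36 (limma adjusted p = 0.176), and -0.33 ± 0.16 without WT replicate 5 (adjusted p = 0.141). Within 1 gene cluster the 4 genes thus had fold changes of both signs, and only that of Saa3 was called over all livers.

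**Figure D2:**
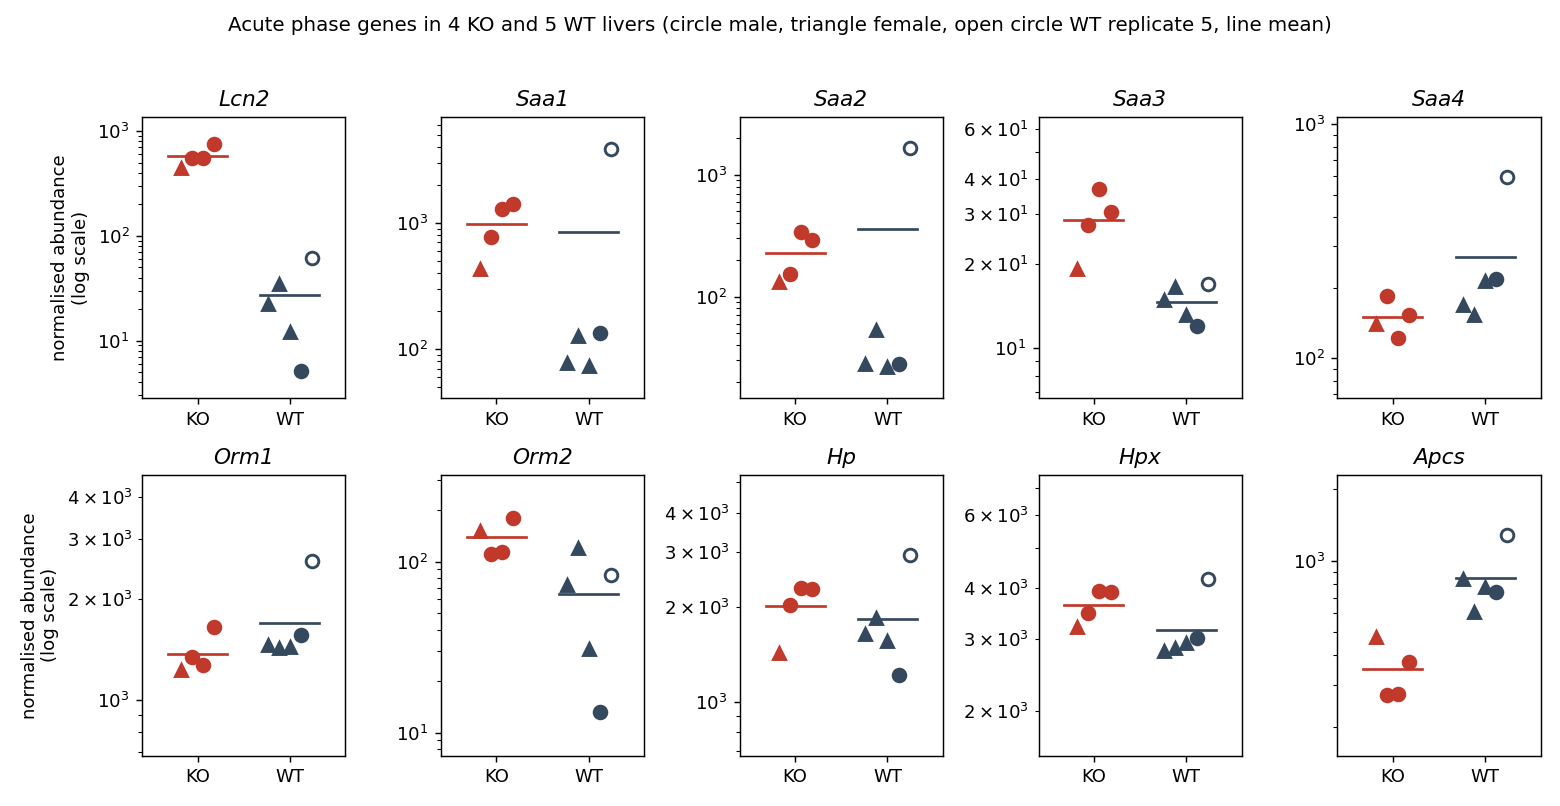
Normalised abundance of the 10 genes in each liver on a log scale, KO left and WT right, with circles for males, triangles for females, an open circle for WT replicate 5 and a line at each group's mean. KO livers lie above all WT livers for Lcn2 and Saa3 and below them for Apcs, and WT replicate 5 is the highest WT liver in every panel but that of Orm2.

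The orosomucoids, Orm1 and Orm2, encode alpha-1-acid glycoproteins, which bind drugs and dampen immune cells. Orm1 is the main form here and stood at 1226, 1341, 1270 and 1651 in KO livers and at 1455, 1422, 1435, 1561 and 2595 in WT livers. The groups overlapped, and the log2 fold change was -0.27 ± 0.19 (limma adjusted p = 0.296), or -0.11 ± 0.11 without WT replicate 5 (adjusted p = 0.487). Orm2 stood at 150.4, 111, 114 and 178.5 in KO livers and at 73.1, 121, 30.6, 13.2 and 83.8 in WT livers. Of the WT livers, replicate 2 alone reached into the KO range. The log2 fold change of Orm2 was 1.42 ± 0.56 (adjusted p = 0.0744), and 1.61 ± 0.59 without WT replicate 5 (adjusted p = 0.0604). Leaving out each library in turn gave values between 0.96, without WT replicate 4 (adjusted p = 0.0812), and 1.74, without WT replicate 2 (adjusted p = 0.0325), and Orm2 was called in the last of these alone. Orm1 and Orm2 sit side by side on the plus strand of chromosome 4 (63344560 to 63348163 and 63362449 to 63365878, 6 exons each) and share 27.5% of their words of 31 bases. Because Orm1 is far more abundant, a small error in dividing reads weighs more on Orm2. The ratio of Orm1 to Orm2 ran between 8.15 and 12.1 in KO libraries and between 11.8 and 118 in WT libraries, where it varied most.

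Hp and Hpx encode the plasma scavengers haptoglobin, which binds free hemoglobin, and hemopexin, which binds free heme. Haptoglobin (chromosome 8, 109575128 to 109579172, minus strand, 5 exons) stood at 1436, 2031, 2309 and 2292 in KO livers and at 1639, 1847, 1561, 1214 and 2933 in WT livers. The groups overlapped at both ends, and the log2 fold change was 0.17 ± 0.25 (SE; limma adjusted p = 0.621), or 0.36 ± 0.19 without WT replicate 5 (adjusted p = 0.167). Hemopexin was the most abundant of the 10 genes by its means (chromosome 7, 105591613 to 105600137, minus strand, 10 exons). It stood at 3211, 3465, 3931 and 3902 in KO livers and at 2798, 2840, 2927, 3008 and 4187 in WT livers. Its log2 fold change was 0.21 ± 0.14 over all livers (adjusted p = 0.266) and 0.32 ± 0.10 without WT replicate 5 (adjusted p = 0.0388), where every KO liver lay above the 4 WT livers that remained. That difference was 1.25-fold by the means, small beside those of Saa1 and Saa2.

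Apcs encodes serum amyloid P, the pentraxin that coats amyloid and cell debris. It stood at 479, 272, 274.5 and 374 in KO livers and at 839, 609, 775.5, 737 and 1277 in WT livers. Every KO liver lay below every WT liver. The means were 350.1 ± 98.3 in KO and 847.5 ± 254 in WT (SD, n = 4 and n = 5), 2.42-fold lower in KO, and the log2 fold change was -1.27 ± 0.23 (limma adjusted p = 0.00254). Without WT replicate 5 it was -1.11 ± 0.19 (adjusted p = 0.00261). Apcs lies on chromosome 1 (172893961 to 172895041, minus strand, 2 exons).

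All 10 genes passed the filter of a mean of at least 1. Over all livers 2 were called higher in KO (Lcn2 and Saa3), 1 was called lower (Apcs) and 7 were not called. Among all 10950 transcripts tested 35.9% were called, 21.4% higher and 14.5% lower, so 3 of 10 was near the background. The groups did not overlap for 3 of the 10 genes, against 31.1% of all transcripts. Without WT replicate 5, 5 genes were called higher (Lcn2, Saa1, Saa2, Saa3 and Hpx) and 1 lower (Apcs), and the groups did not overlap for these 6 genes. There 22.2% of 11005 transcripts were called higher, 14.7% lower, and 36.9% did not overlap. The calls without that animal are a description, since it was picked from these values. Replicate 4 is then the only WT male, against 3 KO males, so genotype and sex are hard to tell apart. The median log2 fold change of the 10 genes was 0.55 over all livers and 0.65 without WT replicate 5, against 0.03 in both fits over all transcripts. In the authors' deposited table the same 3 genes had a q under 0.05, with log2 fold changes (KO minus WT) of 4.81 for Lcn2, 0.88 for Saa3 and -1.32 for Apcs, where 25.2% of 13540 transcripts did. With every library scaled to the same total the median of all transcripts moved to 0.37. On that scale Orm2 (log2 fold change of 1.82, adjusted p = 0.0202) and Hpx (0.61, adjusted p = 0.00277) were also called, and Orm1 turned to 0.13 (adjusted p = 0.482). There 5331 of 11086 transcripts were called, 5030 higher and 301 lower, so 5 of 10 was near the background.

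**Figure D3:**
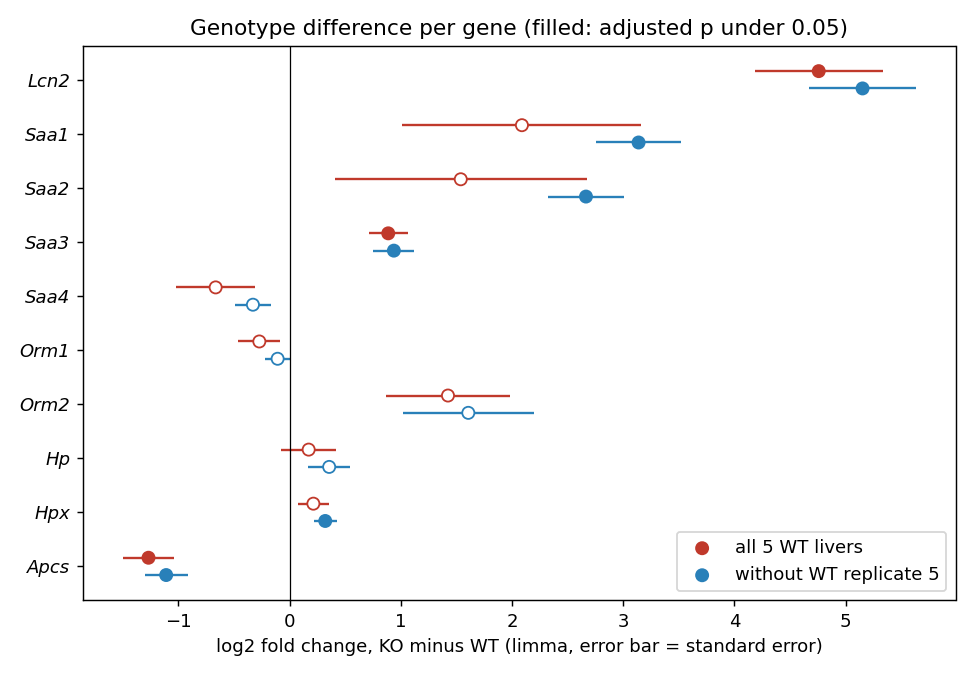
Log2 fold change of each gene, KO minus WT, with its standard error, over all livers (red) and without WT replicate 5 (blue), filled where the limma adjusted p was under 0.05. Saa1 is at 2.09 ± 1.07 over all livers and at 3.14 ± 0.38 without WT replicate 5, and Saa2 is at 1.54 ± 1.13 and at 2.67 ± 0.34.

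The KO female had the lowest KO value for 7 of the 10 genes and the highest for Apcs, whereas it had the lowest KO value for 28.8% of all transcripts tested. Saa1 was 433 in the KO female and 776 to 1415 in KO males, against 73.8 to 128 in WT females and 134.5 and 3812 in WT males. Apcs was 479 in the KO female and 272 to 374 in KO males, against 609 to 839 in WT females and 737 and 1277 in WT males. A term for genotype by sex called 0 of the 10 genes (limma, adjusted p between 0.427 and 0.946), with 2 at an unadjusted p under 0.05, Saa3 and Apcs, and it called 0.119% of all transcripts. The term rests on 1 KO female. With sex as a covariate over all livers, Saa1 had a log2 fold change of 1.26 (limma adjusted p = 0.309). On the same fit Saa2 was at 0.85 (adjusted p = 0.575) and Hpx at 0.12 (adjusted p = 0.5).

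WT replicate 5 differed from the other WT livers by amounts that varied from gene to gene. It exceeded their mean 36.9-fold for Saa1 and 48.8-fold for Saa2, 3.34-fold for Lcn2 and 3.17-fold for Saa4. Apcs, Hp and Orm1 were 1.73-fold, 1.87-fold and 1.77-fold above that mean, and Saa3 was 1.197-fold above it. KO livers had higher Lcn2, Saa3 and Orm2 than this animal and lower Saa1, Saa2, Saa4, Hp, Hpx and Apcs. Orm1 was also highest in WT replicate 5 among all 9 livers. Some of the 10 genes were thus higher in every KO liver than in this WT animal and others lower, a description that rests on 1 animal. For Lcn2, Saa1, Saa2, Saa3 and Hpx, both this animal and every KO liver lay above all the other WT livers.

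Transcripts were also ranked by their likeness to Saa1. After each genotype's mean was taken off the log2 values, the 6 transcripts most like Saa1 by Pearson r over 9 libraries, other than members and numbered predicted genes, were Litaf, Smpd3, Rpap3, Mitf, Cyb561 and Xbp1 (r of 0.976 to 0.954). Saa2 had an r of 0.983 and Hpx of 0.966. WT replicate 5 weighs heavily in this measure. Without it the r of those 6 transcripts fell to between 0.54 and 0.862, that of Saa2 was 0.819, that of Hpx 0.871 and that of Saa4 -0.133. Litaf, a membrane adaptor induced by lipopolysaccharide, stood at 37.5 to 41.2 in KO livers and at 24.8 to 26.2 in the first 4 WT livers, with 53.6 in WT replicate 5. Xbp1, a transcription factor of the unfolded protein response, stood at 77.8 to 94.9 in KO livers and at 64.3 to 84.1 in those 4, with 172 in WT replicate 5.

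Other positive acute phase genes mostly did not follow Lcn2. Of 24 listed and tested, 1 was called higher in KO and 9 lower, against 21.4% and 14.5% of all transcripts. The median log2 fold change was -0.37, and without WT replicate 5 the counts were 3 and 9. Counts with equal totals, here and below, stand beside 5030 higher and 301 lower among 11086 transcripts. With equal totals 6 of the 24 were higher, 1 (Serpina3m) was lower and the median was 0.03. The lower calls named below other than Serpina3m were lost on that scale, and Serpina3n turned to 0.02. The interleukin-1 receptor antagonist Il1rn was the 1 called higher, at 7.66 ± 0.489 in KO and 2.79 ± 1.905 in WT (SD, n = 4 and n = 5; limma adjusted p = 0.0231). Among those called lower were the fibrinogen chain Fgb (1432 ± 73.9 in KO and 2298 ± 494 in WT), the inhibitor chain Itih4 (217 ± 25.4 and 370 ± 73.7), the serpin Serpina3m (173 ± 45.5 and 376 ± 95.3) and the lipopolysaccharide-binding protein Lbp (34.3 ± 2.45 and 50.3 ± 6.35). C-reactive protein, Crp, was 291 ± 40.3 in KO and 388 ± 41.3 in WT (adjusted p = 0.0219), and Serpina3n was 176 ± 20.01 in KO and 228 ± 22.5 in WT (adjusted p = 0.0194). The leucine-rich glycoprotein Lrg1 behaved like Saa1. It was 185, 309.5, 333 and 304 in KO livers and 121.7, 164, 89.2, 102 and 439.9 in WT livers, with an adjusted p of 0.146 over all livers and 0.00369 without WT replicate 5.

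Of 15 negative acute phase genes, which fall in inflammation, 14 were tested. Of these, 1 was called higher and 4 lower (median log2 fold change of -0.09), against 21.4% and 14.5% of all transcripts. With equal totals 4 were higher and 1 (Pon1) was lower, with a median of 0.30. The paraoxonase Pon1 fell to 473 ± 87.6 in KO, against 1218 ± 357 in WT (SD, n = 4 and n = 5; limma adjusted p = 0.0022). The apolipoprotein genes Apoa1 and Apoa2 and antithrombin, Serpinc1, were the other genes called lower, calls lost with equal totals (adjusted p of 0.759, 0.592 and 0.865). Transferrin, Trf, was called higher, at a log2 fold change of 0.57 (limma adjusted p = 0.0398). Without WT replicate 5 its log2 fold change was also 0.57, but the call was lost (adjusted p = 0.0586). With equal totals it was 0.97 and called (adjusted p = 0.000792). Albumin, Alb, was 45680 ± 7139 in KO and 62240 ± 23930 in WT (adjusted p = 0.411). With equal totals its log2 fold change turned to 0.04. In WT replicate 5 it was 0.419 of the mean of the other WT livers.

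Along the interleukin-6 pathway 15 of 20 listed genes were tested, with 3 called higher and 2 lower (median log2 fold change of 0.20). Those counts were near the shares over all transcripts, 21.4% higher and 14.5% lower. Without WT replicate 5 the counts were 5 and 2, against 22.2% and 14.7%. With equal totals 7 were higher and 1 lower (median of 0.53). The cytokine genes Il6, Lif, Osm and Il11 were below 1 in every library. The receptor gene Il6ra fell to 5.37, 4.34, 2.61 and 2.57 in KO livers, against 14.4, 12.7, 12.6, 11.5 and 9.14 in WT livers (log2 fold change of -1.50 ± 0.19, limma adjusted p = 0.000353). All KO livers lay below all WT livers. The shared receptor chain Il6st stood at 13.2 ± 0.728 in KO and 13.5 ± 3.00 in WT (adjusted p = 0.977). Stat3 stood at 23.0 ± 0.944 in KO and 27.9 ± 8.66 in WT (SD, n = 4 and n = 5; adjusted p = 0.396), with 41.5 in WT replicate 5. The kinase genes Jak1 and Tyk2 and the oncostatin M receptor Osmr were the 3 called higher. Socs3, a feedback inhibitor induced by Stat3, stood at 4.25, 3.90, 8.004 and 4.06 in KO livers and at 2.08, 3.83, 1.63, 1.28 and 19.96 in WT livers, with an adjusted p of 0.654 over all livers and 0.0258 without WT replicate 5.

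**Figure D4:**
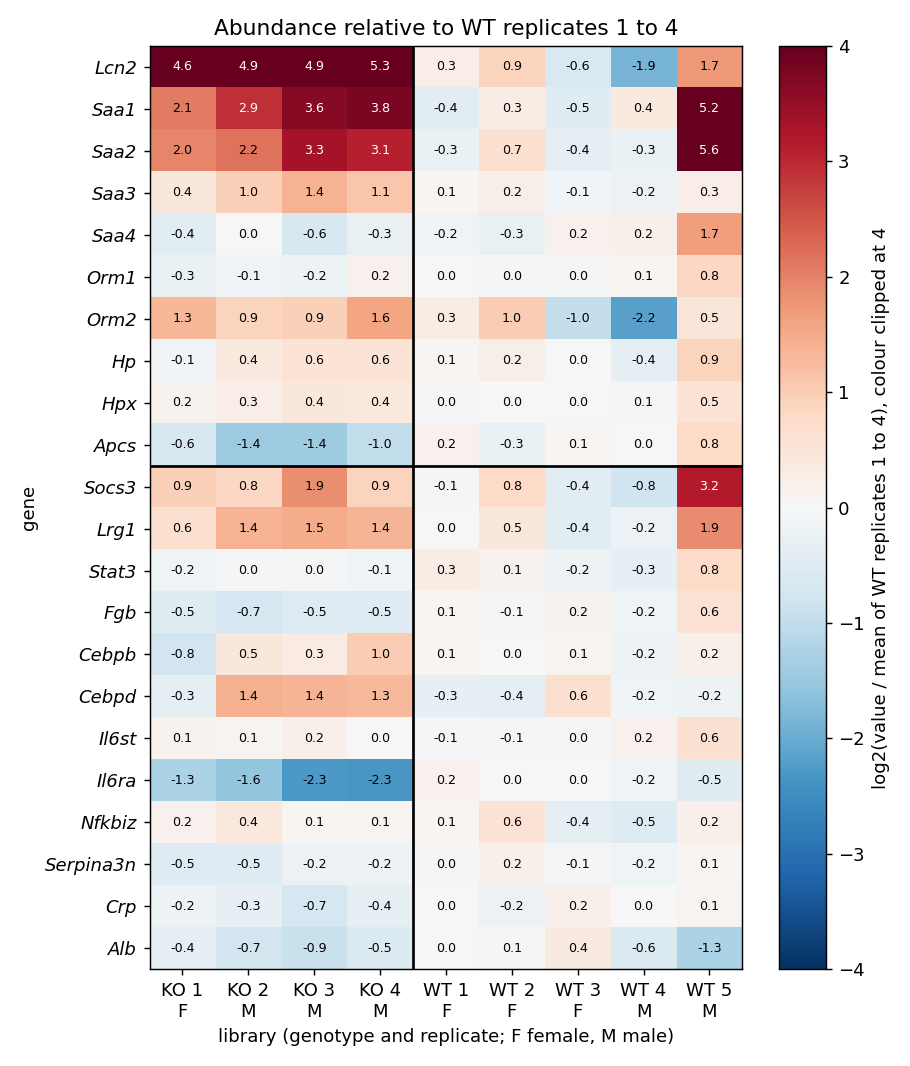
Log2 ratio of each library to the mean of WT replicates 1 to 4, KO libraries left and WT libraries right, for the 10 genes (above the line) and for other acute phase and signalling genes (below it). WT replicate 5 has the highest ratios of all libraries for Saa1, Saa2, Socs3 and Lrg1, and KO libraries have the highest for Lcn2 and the lowest for Il6ra.

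On the side of interleukin-1, TNF and NF-kB, 22 of 26 listed genes were tested. Of these, 8 were called higher and 3 lower (median log2 fold change of 0.22), against 21.4% and 14.5% of all transcripts. Without WT replicate 5 the counts were 9 and 2. With equal totals 11 were higher and 1 (Il1rap) lower (median of 0.57). The pattern receptor Tlr2 stood between 3.06 and 4.81 in KO livers and between 0.783 and 1.25 in WT livers (limma adjusted p = 5.77e-05), the NF-kB subunits Nfkb2 and Rela were 3.44-fold and 1.52-fold higher and the kinase Irak2 was 2.10-fold higher. The interleukin-1 receptor accessory chain Il1rap fell to 34.7 ± 3.08 in KO, against 90.7 ± 11.3 in WT (SD, n = 4 and n = 5; adjusted p = 1.58e-05), and the kinase Chuk and the adaptor Traf6 were also called lower, the last of these not without WT replicate 5 (adjusted p = 0.0522) and with a log2 fold change of 0.08 at equal totals. Nfkbiz, an inhibitor-like nuclear protein of the NF-kB family, stood at 3.73 ± 0.411 in KO and 3.33 ± 1.01 in WT (adjusted p = 0.496). Of 13 transcription factor genes 1 was called higher, Atf3, and 1 lower, the bile acid receptor Nr1h4, with a median of -0.07. With equal totals 3 were higher and 0 lower, and the median turned to 0.31. Cebpb stood at 32.9, 77.2, 70.8 and 113 in KO livers and at 48.5 to 64.2 in WT livers (adjusted p = 0.574). Cebpd stood at 4.10, 14.0, 13.3 and 12.9 in KO livers and at 3.99 to 8.07 in WT livers (adjusted p = 0.0534). The KO female was the lowest KO liver for both.

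Of 18 listed genes for heme and iron handling 16 were tested, and 3 were called higher and 2 lower (median log2 fold change of 0.20). Those counts were near the shares over all transcripts, 21.4% higher and 14.5% lower. With equal totals 9 were higher and 1 (Blvrb) lower (median of 0.57). The heme oxygenase Hmox1 was 33.0 ± 8.56 in KO and 15.85 ± 6.10 in WT (limma adjusted p = 0.0127), and the heme transporter Slc48a1 and the alpha globin Hba-a1 were the other genes called higher. Biliverdin reductase Blvrb fell to 25.6 ± 2.47 in KO, against 44.5 ± 2.94 in WT (adjusted p = 0.000134), and the transferrin receptor Tfr2 was also called lower, but was at -0.01 with equal totals (adjusted p = 0.957). Slc22a17 and Lrp2, which encode receptors for lipocalin 2, were below 1 in every library. Of 17 partners of serum amyloid A and pentraxins 13 were tested, 7 called higher and 1 lower (median of 0.43), or 6 and 1 without WT replicate 5. With equal totals 8 were higher and 0 lower (median of 0.66). The complement genes C1qa, C1qb and C1qc, whose product binds pentraxins, were 2.24-fold, 2.20-fold and 2.35-fold higher, and the platelet selectin Selp was called lower. The C1q genes are made by macrophages, and C1qa is itself among the macrophage markers given next. The part of these cells in the C1q levels was not tested.

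Markers of several other cell types differed between the groups beside these results, where 21.4% of all transcripts were called higher. Summed over 12 neutrophil markers the level lay between 60.5 and 134.5 in KO livers and between 12.3 and 69.3 in WT livers, with 69.3 in WT replicate 5 and at most 21.0 in the other WT livers. Of these 4 were tested, with 3 called higher, and S100a8 stood at 44.2 ± 18.1 in KO and 13.2 ± 12.1 in WT (SD, n = 4 and n = 5; limma adjusted p = 0.0109). The granule genes Ltf, Mpo and Elane were below 1 in every library, and Ngp and Camp reached 2.35 and 1.98 in KO livers and 0.703 and 1.11 in WT livers. By their means Ngp, Camp and Ltf were 5.91-fold, 3.25-fold and 4.57-fold higher in KO, at levels too low to be tested. Elane was 1.25-fold higher but had its highest value in WT replicate 5 (0.786). Ly6g alone among the 12 was lower in KO by its means, at 0.085 against 0.183 in WT. S100a8 and S100a9 were the bulk of the neutrophil sum. Macrophage markers summed to between 493 and 574 in KO livers and between 255.5 and 333 in WT livers, 11 of 11 tested called higher. Cholangiocyte and progenitor markers summed to between 583 and 947 in KO livers and between 37.5 and 63.0 in WT livers, 6 of 7 tested called higher, with Spp1 the bulk of that sum and Krt7 and Cftr below 1 in every library. Stellate and fibroblast markers summed to between 297 and 350 in KO livers and between 127 and 228 in WT livers, 8 of 9 tested called higher, with Col1a1 7.63-fold higher. Adipocyte markers summed to 6.61 or less in every library. Endothelial markers summed to between 53.4 and 68.1 in KO livers and between 51.3 and 72.5 in WT livers. Of 6 tested, 1 was called higher and 1 lower. Lymphocyte markers summed to between 8.09 and 13.8 in KO livers and between 3.72 and 7.53 in WT livers. Of these 10 only Ptprc was tested, and it was called higher. The part of these cells in the levels of Lcn2 and Saa3 was not tested.

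Seed matches of miR-122 in these transcripts were set beside those in all transcripts, without matching for UTR length. In the annotated 3' UTRs (GENCODE M21), the 6-base word CACTCC was found in 2 of the 10, Lcn2 and Saa4, against 24.2% of 17830 transcripts with a UTR of at least 50 bases. Both also held 1 of the 7-base words ACACTCC and CACTCCA, as did 13.1% of those transcripts. Lcn2, whose UTR of 232 bases held CACTCC at 2 places, was called higher. Saa4, with a UTR of 1524 bases, was not called in either direction. Saa1, Saa2, Saa3, Orm1, Orm2, Hp, Hpx and Apcs held none of these words in UTRs of 69 to 207 bases. Whether Argonaute occupied any such site was not tested.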

How the data were processed

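Poly-A RNA-seq of the uncrosslinked part of pulverised liver was analysed for 4 KO and 5 WT mice, grouped by title. The authors deposited 1 table of 30519 transcripts. The submitters' processing notes list kallisto, sleuth and the mm10 build, without versions, transcript set or filters. The deposited library columns are a normalised signal, not TPM: their sums lie between 0.711 M and 0.869 M for KO libraries and between 0.873 M and 1.17 M for WT libraries. The deposited p-value and q-value come from the authors' sleuth test, and the deposited coefficient is in natural log units, WT minus KO, turned here to log2 of KO over WT. Reads per unit of value, solved from the deposited mean observation, followed transcript length (Spearman rho of 0.974 over 13431 transcripts, a description), and steps between low values gave the depth; a share of 54.0% to 65.8% of values of at most 10 reads came within 0.1 of a whole read, so no count test was run.

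Transcripts with a mean of at least 1 entered limma 3.58.1 under R 4.3.3 as log2(value + 1), genotype as the only term, with a prior trend and Benjamini-Hochberg adjustment over 10950 transcripts at 0.05. Fold changes on this scale understate those of low transcripts; a fold given without log2 divides 1 group mean by the other. The design had assumed normalised abundances and was kept. The members and lists were chosen with earlier results of these data known. Genes beside the 10 were named as up to 4 called genes per list and direction, lowest adjusted p first, plus 11 signalling and acute phase genes named in any case. One WT library (replicate 3) is female in its label and male in its column name; the label was kept, since the Y-linked Ddx3y and Eif2s3y were at 0.0422 and 0.114 there and at 13.2 and 30.2 or above in males. No library was a duplicate of another (highest Pearson r 0.981). Tested on simulated data of the KO against WT comparison (10950 genes, of which 200 had a known change), the fit found 73% of the changes of size 1 and 94% of those of size 2 on the log2 scale, and 6 of its 173 calls were false. Those shares belong to a setting with 200 changed genes, whereas 3934 of 10950 transcripts were called between KO and WT livers. Whether the shares hold at that number was not tested. Whether they hold for genes with standard errors as wide as those of Saa1 (1.07) and Saa2 (1.13) over all livers was not tested. Alternatives were another threshold, filters, pseudocounts, equal totals, each library left out and a block for the replicate number. Others were a sex term, the males by themselves and the authors' q. Python 3.11.15 with biopython 1.88 was used for sequences, which are from RefSeq (GRCm38.p6) and GENCODE M21 (GRCm38, the assembly mm10 names). The labels do not say how 1 transcript stands for a gene. The sequences around the seed matches are not reported here.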

Additional observations from a re-analysis of the deposited data

Results flagged for a closer look

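In 7 cases WT replicate 5 stood outside the spread of its group by Dixon's test, 5 of them among the 10 acute phase genes. These were Saa1 (3812), Saa2 (1653), Saa4 (595.6), Orm1 (2595) and Hpx (4187), together with Socs3 (19.96) and Lrg1 (439.9), in each case as the highest WT liver. The other libraries outside their group were KO replicate 2 for Fgb (1322, lowest), KO replicate 1 for Blvrb (21.9, lowest) and Cebpd (4.10, lowest), KO replicate 3 for Socs3 (8.004, highest), and WT replicate 3 for Apoa1 (7068, highest) and Cebpd (8.07, highest). In all, 13 of 106 groups of values were so flagged. For independent, normally spread values about 1 in 20 groups is flagged, or 5.3 here. These values were not logged, the genes vary together, and WT replicate 5 was picked from these same genes. The 2 counts therefore cannot be compared as a test. WT replicate 5 also had the fewest reads (12.2 M) and the largest sum of values (1.17 M), and the part of these in its values was not tested.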

How the results depend on the processing

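Lcn2, Saa3 and Apcs were called in the same direction under every alternative run. The number of the 10 members called was 3 in the main analysis, 6 without WT replicate 5 and 5 with equal totals. It was also 5 with the replicate block over the 8 livers whose numbers both groups share. Among all transcripts, in the same order, 3934 of 10950, 4054 of 11005, 5331 of 11086 and 3602 of 11005 were called. Leaving out each library gave 3 to 6 members. The block leaves WT replicate 5 out by construction. Same-numbered livers deviated together with r of -0.184 to 0.229, and some of them differed in sex. These low values showed no pairing but cannot settle whether the numbers pair the mice. With the block Hpx was not called (adjusted p = 0.0854), and Saa1 and Saa2 were. The number of all transcripts called was 3934 of 10950, and 2362 of 10950 at an adjusted p of 0.01. It was 2589 of 6659 with a mean of at least 5 and 2336 of 11020 among males alone. When each library was left out it ran from 3114 of 10893 to 4054 of 11005. With equal totals 5030 were higher and 301 lower, against 2345 higher and 1589 lower. Orm1 reversed to a log2 fold change of 0.13 with equal totals. The number of members called for genotype by sex was 0 in every alternative run; it could not be fitted without KO replicate 1. Among males alone Saa1 had a log2 fold change of 0.64 (adjusted p = 0.754), with WT replicate 5 as 1 of 2 WT animals. The depth limits Lcn2 in WT replicate 4 (about 42 reads) and Saa3 (51 to 242 reads) most. Replicates are separate mice, and litters are not given.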
